A study of Homo sapiens with 8 samples.

Results

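The cytosolic ribosomal proteins are the protein parts of the ribosomes that translate messages from the nucleus. Their genes were taken here by symbol, as the rows named RPL or RPS followed by a number, with an optional A, X or L, or RPLP0, RPLP1 and RPLP2. This rule leaves out pseudogenes, the RPS6 kinases and ribosomal proteins with other names, such as RPSA. It found 80 of the 25435 rows of the table, 31 for the small subunit and 49 for the large subunit. Of these, 76 passed the filter on low counts and were tested among 14898 genes. The other 4 did not pass, with at most 4 counts in any library; RPL10L, RPL21 and RPL3L are among them.

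The study sequenced messenger RNA of SET-2, a human cell line from an essential thrombocythemia that had turned into a megakaryoblastic leukemia, and which carries an activating JAK2 mutation. The cells were transduced with a GFP-marked vector that held a guide RNA against ZRSR2 (knockout) or a non-targeting guide (control). ZRSR2 is a splicing factor for minor introns, and the series title asks what its loss does in a JAK2-driven neoplasm. Each genotype had 2 guides, each used in 2 experiments, which gives 8 libraries. In both genotypes, experiment 1 supplied replicate 1 (guide 1) and replicate 2 (guide 2), and experiment 2 supplied replicate 3 (guide 1) and replicate 4 (guide 2). The protocol gives RNA extraction at day 20 after transduction for biological replicate 1 and at day 25 for biological replicate 2, and the experiment number was assumed to be that replicate number. All 8 libraries share the cell line, the JAK2 mutation and the vector. Whether cells were sorted or cloned is not given in the sources used here. The guides of an experiment are not stated to be independent cultures, so p-values measure the spread between these libraries, which may in part be technical.

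Each ribosome joins ribosomal RNA with about one copy of each of these proteins, so cells make them in matched amounts. Their messages are among the most abundant in dividing cells, and most begin with a 5′ terminal oligopyrimidine (TOP) tract, a C followed by a run of pyrimidines. Through this tract the mTOR pathway and the protein LARP1 set how strongly they are translated. Loss of one copy of many of these genes causes Diamond-Blackfan anaemia, an inherited failure of red cell production.

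To show this shared feature, 30-base windows around annotated start sites were read from RefSeq promoters on GRCh38.p14, with 15 bases before the start and 15 from it. Capitals mark the unbroken run of C and T that begins at the start site, on the transcribed strand. The genes shown are those that differed between the experiments and had an entry, followed by RPL34, RPLP0 and RPL4 as abundant or steady genes that did not.
RPS26, chr12:56041903-56041932, plus strand: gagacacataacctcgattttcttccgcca
RPL29, chr3:51995881-51995910, minus strand: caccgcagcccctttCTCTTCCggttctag
RPL22, chr1:6199581-6199610, minus strand: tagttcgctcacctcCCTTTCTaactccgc
RPL11, chr1:23691791-23691820, plus strand: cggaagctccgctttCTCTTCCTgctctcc
RPS10, chr6:34426055-34426084, minus strand: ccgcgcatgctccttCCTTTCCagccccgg
RPS9, chr19:54200843-54200872, plus strand: gtggcgcttccgcgcCTCTTTCTCagtgac
RPL10A, chr6:35468386-35468415, plus strand: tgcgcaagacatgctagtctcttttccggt
RPS25, chr11:119018329-119018358, minus strand: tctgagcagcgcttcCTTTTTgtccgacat
RPS18, chr6:33272060-33272089, plus strand: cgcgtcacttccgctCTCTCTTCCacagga
RPL9, chr4:39458908-39458937, minus strand: gtacgtaatgacgacagacgttctttcttt
RPL34, chr4:108620561-108620590, plus strand: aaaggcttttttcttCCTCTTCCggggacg
RPLP0, chr12:120201097-120201126, minus strand: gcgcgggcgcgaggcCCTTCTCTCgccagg
RPL4, chr15:66504841-66504870, minus strand: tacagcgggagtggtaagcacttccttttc

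RefSeq promoters held an entry for 63 of the 80 genes. A TOP-like start, here a C at the start followed by at least 4 bases that are each C or T, was found at a start site of 45 of these 63 genes, or 71.4%. The same search over 27305 genes gave 5.14%. Mitochondrial ribosomal protein genes gave 8.7% of 69, and ribosome biogenesis genes 10% of 30. The start annotated for RPS26 is a G, and those of RPL10A, RPL9 and RPL4 are an A, so their windows hold no run in capitals. RPL11 has a further start upstream that is an A, and RPL34 one downstream that is a T, neither of them TOP-like. RPS15A and RPL39L had no entry. A match is a description of these letters alone.

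The targeted gene was checked first. ZRSR2 was measured at 29.4, 22.9, 28.3 and 18.7 counts per 1000000 counts (CPM) in knockout replicates 1 to 4, and at 37.9, 39.2, 39.7 and 41.1 CPM in control replicates 1 to 4. The groups did not overlap. The log2 fold change was −0.67 (SE 0.15), and the adjusted p of edgeR's quasi-likelihood test was 1 in the fit with genotype alone. Blocking on the experiment gave 0.227 in edgeR and 5.38e-04 in DESeq2. Library totals ran from 31106042 to 71521173 counts, the highest in control replicate 3. Of 13 megakaryocyte markers, 11 averaged at least 1 CPM, with summed levels of 3263 to 3487 CPM in experiment 1 and 3432 to 4242 CPM in experiment 2. GP1BB was at 0 in every library. Erythroid markers (10 of 10) summed to 1578 to 1752 CPM and to 1746 to 2481 CPM. Lymphocyte markers (3 of 8, led by CD7) summed to 116 to 125 CPM and to 236 to 334 CPM, with MS4A1 at 0 and CD3D under 1 CPM. Monocyte and granulocyte markers (2 of 8, led by LYZ) summed to 229 to 247 CPM and to 252 to 326 CPM, with MPO under 1 CPM.

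Ribosomal protein messages took a near-constant share of each library. The knockout libraries gave 4.35%, 4.45%, 4.34% and 4.58% of all counts, and the control libraries 4.22%, 4.25%, 4.44% and 4.23%. The knockout mean was 4.43% ± 0.111 (SD, n = 4) and the control mean 4.29% ± 0.104 (SD, n = 4), and the groups overlapped. By experiment the share was 4.32% ± 0.102 in experiment 1 and 4.40% ± 0.147 in experiment 2 (SD, n = 4 each), again overlapping. The ratio of small to large subunit counts did differ by experiment. It was 0.663 ± 0.00891 in experiment 1 and 0.705 ± 0.0107 in experiment 2 (SD, n = 4 each). The libraries ran from 0.655 to 0.674 and from 0.694 to 0.719, without overlap, and the difference was not tested. As a ratio of sums it is weighted to the most abundant genes, and changes per gene were not compared by subunit. The 5 genes of most counts held 16.1% to 16.6% of ribosomal protein counts in experiment 1 and 17.3% to 18.1% in experiment 2. For the share of all ribosomal protein messages, the widest 95% Wilson interval of a library reached 0.00707 percentage points to either side. This interval covers counting error only. Rows that look like ribosomal protein pseudogenes held between 0.347 and 0.367 counts per 100 counts of the genes themselves.

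Levels differed far more between the genes than between the libraries. Per kb of coding length (GENCODE 29), high mean levels were 3476 CPM per kb for RPL37A and 2662 for RPLP1, an acidic protein of the stalk that recruits elongation factors. In all, 43 genes exceeded 1000 CPM per kb, and the tested genes had a median of 1106 CPM per kb. This length leaves out the untranslated parts, which can raise the value of genes with a short coding part. RPL41, with 78 coding bases and 189 CPM, came to 2428 CPM per kb. By CPM alone, RPL4 (1614), which lines the exit tunnel, RPS4X (1453) and RPLP0 (1394), the core of the stalk, were among the 5 highest. At the other end, 7 genes were under 30 CPM per kb. RPL3L, a copy of RPL3 used in muscle, had 0 to 3 counts a library, and RPL10L, a testis copy of RPL10, also had 0 to 3. RPL21 had 0 or 1. RPL36A (10.5 CPM per kb), RPS10 (12.9) and RPL17 (16.2) also lay far below their neighbours in the order, RPL39L (33.3) and RPS27L (116).

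The low rows fall into 2 kinds by sequence. Each coding part was split into overlapping 50-base words, and a word was called unique where no other gene's GENCODE 29 transcripts hold it. RPL3L, RPL39L and RPS27L had 100% unique words and RPL10L 99.8%, so reads from them can be told from other genes. RPL21, RPL36A, RPL17 and RPS10 had 0%, so their counts depend on how reads that fit several genes were shared out, and their levels are uncertain. RPL21 shares words with 61 other genes, most of all with RPL21P16. RPL17, RPS10 and RPL36A share most with the genes annotated as RPL17-C18orf32, RPS10-NUDT3 and RPL36A-HNRNPH2. RPS26, RPL39, RPL41, RPS27 and RPS28 also had 0%, at 207, 296, 2428, 1778 and 2081 CPM per kb, so of the 9 genes with no unique words 6 lay under 300 CPM per kb. The median level was 780.3 CPM per kb in the 38 genes with under 50% unique words and 1272 in the other 42.

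**Figure D1:**
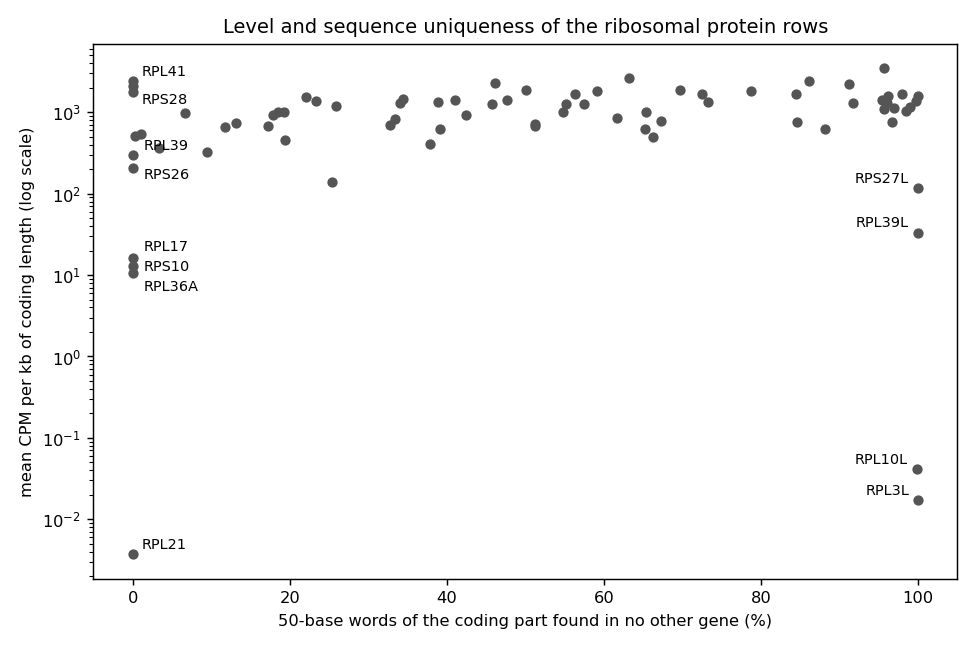
Mean level in the 8 libraries (CPM per kb of coding length, log scale) against the percentage of coding 50-base words found in no other gene, 1 point for each of 77 of the 80 genes. Genes near or above 1000 CPM per kb are found across the range of uniqueness. The genes under 30 CPM per kb lie at either end of it, while RPL13A, at 138 CPM per kb, has 25.4% unique words.

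Between libraries these messages were steady. The median SD of log2 CPM over the 8 libraries was 0.0847 for the 76 tested genes, 0.268 over all 14898 genes tested and 0.180 over the 2531 genes with a mean of at least 100 CPM. In 43 of the 76 genes, or 56.6%, the highest library was at most 1.2 times the lowest, against 6.20% of all genes tested. Genes of similar level were not counted separately for this ratio. RPL34 was the steadiest by this ratio (1.05), with 217 to 228 CPM in all libraries. RPL23, which lines the subunit interface and can bind MDM2, ran from 560 to 591 CPM. The ratio exceeded 1.5 in 10 genes, and was highest in RPL39L (3.10) and RPS26 (2.14).

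Experiment 2 was compared with experiment 1 in a fit with 4 cells of genotype by experiment. A set of 13 ribosomal protein genes passed an adjusted p of 0.05 in edgeR's quasi-likelihood test, 6 higher and 7 lower in experiment 2. That is 17.1% of the 76 tested, while 58.2% of all genes tested passed, 29.6% higher and 28.7% lower. Among genes with a mean of at least 100 CPM, a background chosen after the data were seen, 10 of 68 ribosomal protein genes passed (14.7%), against 60.2% of all such genes. The median log2 fold change was −0.01 over the ribosomal protein genes and 0.00 over all genes, and the median absolute change was 0.08 against 0.37. Over all genes with a mean of at least 100 CPM, the median absolute change was 0.26. DESeq2 also called 13. Without control replicate 3, the deepest library, 25 were called, and 9180 genes in all. If the experiment number is the replicate number of the protocol, all libraries of an experiment share a collection day, and experiment, day and any batch that goes with it cannot be told apart.

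**Figure D2:**
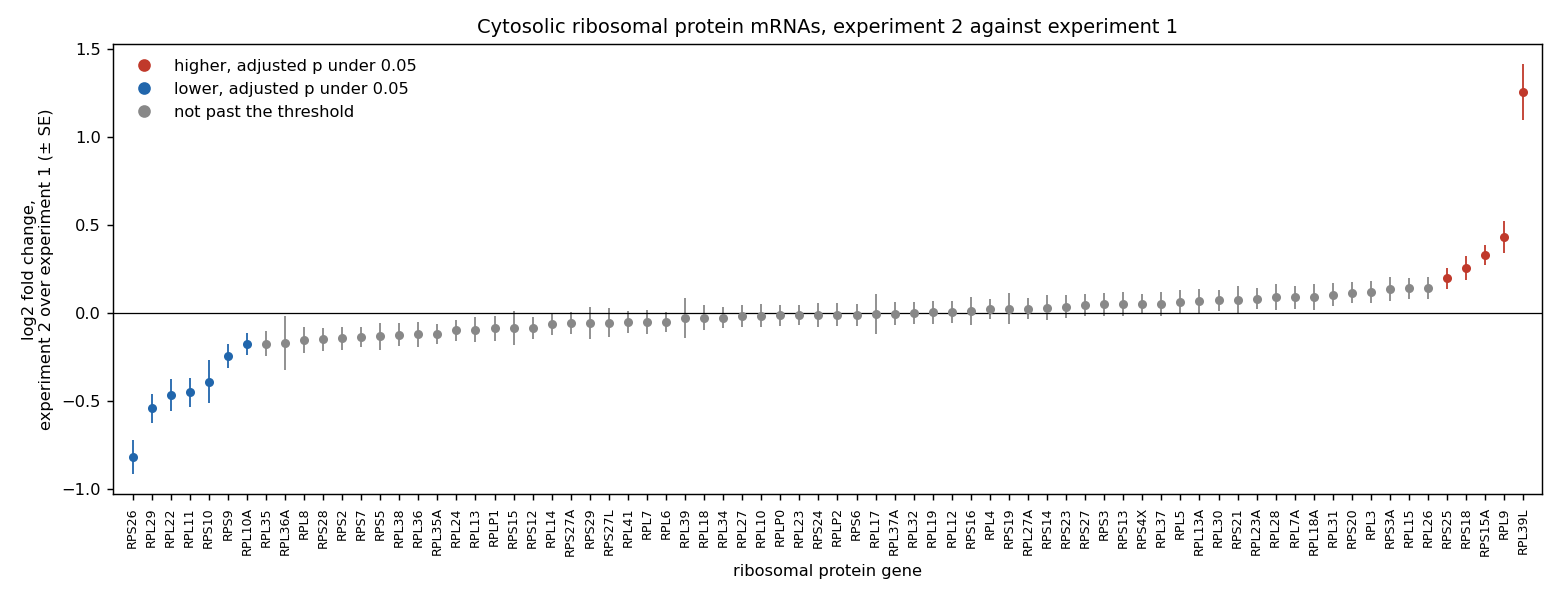
Log2 fold change of experiment 2 over experiment 1 with its standard error for 74 of the 76 tested genes, in rank order; red and blue points passed the adjusted p of 0.05. Of these 74, 64 lie within 0.2 of 0 on the log2 scale, and RPS26 and RPL39L stand at the ends.

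The genes lower in experiment 2 were led by RPS26, a small subunit protein at the channel where the message leaves the ribosome and a Diamond-Blackfan anaemia gene. It measured 95.5, 81.8, 95.9 and 95.1 CPM in experiment 1 (knockout replicates 1 and 2, then control replicates 1 and 2). In experiment 2 it measured 49.0, 57.7, 57.0 and 44.8 CPM in knockout replicates 3 and 4 and control replicates 3 and 4. All libraries of experiment 2 were below all of experiment 1, and the log2 fold change was −0.82 (SE 0.10, edgeR adjusted p = 4.7e-05). The RPS26 row has no unique coding words.

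RPL29, a small basic protein of the large subunit, measured 413, 384, 399 and 400 CPM in experiment 1, in the same library order. In experiment 2 it measured 243, 314, 269 and 270 CPM. The experiments did not overlap, and the log2 fold change was −0.54 (SE 0.08, edgeR adjusted p = 2.4e-04). Of the coding words of RPL29, 32.7% are unique.

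RPL22, an RNA-binding protein on the surface of the large subunit, measured 169, 169, 161 and 160 CPM in experiment 1. In experiment 2 it measured 119, 128, 99.0 and 132 CPM. All 4 were below experiment 1, by −0.47 on the log2 scale (SE 0.09, edgeR adjusted p = 0.00102). Just 3.3% of the coding words of RPL22 are unique. Its paralog RPL22L1, which is outside the symbol rule, moved the other way. RPL22L1 measured 26.2, 30.9, 21.4 and 23.8 CPM in experiment 1 and 60.0, 40.9, 53.7 and 36.2 CPM in experiment 2, again without overlap. Its log2 fold change was 0.91 (SE 0.15, edgeR adjusted p = 4.2e-04).

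RPL11 forms a particle with RPL5 and 5S ribosomal RNA that can bind MDM2 and so stabilise p53. It measured 749, 655, 669 and 693 CPM in experiment 1. In experiment 2 it measured 462, 560, 473 and 528 CPM, each below every library of experiment 1. The log2 fold change was −0.45 (SE 0.08, edgeR adjusted p = 7.3e-04), and 96.9% of its coding words are unique. Its partner RPL5 did not pass, with 740 ± 25.0 CPM and 774 ± 39.0 CPM (SD, n = 4 each; log2 fold change 0.07, SE 0.07). RPL23 and RPL26, which also bind MDM2, had log2 fold changes of −0.01 and 0.14 and did not pass. RPL26 passed without control replicate 3 (0.19, adjusted p = 0.00748).

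The remaining lower genes changed less. RPS10, at the entry side of the message channel, fell from 7.33 ± 0.240 to 5.54 ± 0.551 CPM (SD, n = 4 each; edgeR adjusted p = 0.0168), on a row with no unique coding words. RPS9, which borders the same entry site, fell from 492 ± 3.31 to 416 ± 27.8 CPM (adjusted p = 0.00988). RPL10A, the protein of the L1 stalk, fell from 468 to 494 CPM in the libraries of experiment 1 to 398 to 452 CPM (adjusted p = 0.0294). The RPS10 call was lost without knockout replicate 2 (0.0556), control replicate 1 (0.0659) or control replicate 2 (0.0593). The RPL10A call was lost without knockout replicate 1 (0.0941), 2 (0.0534) or 3 (0.0825), or without control replicate 1 (0.103) or 2 (0.12), each value being edgeR's adjusted p.

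The largest rise was that of RPL39L, a copy of the exit tunnel protein RPL39 that is best known from testis. It measured 3.14, 3.14, 3.40 and 2.71 CPM in experiment 1 and 8.09, 6.70, 8.41 and 6.02 CPM in experiment 2. Every library of experiment 2 was above every library of experiment 1, and the log2 fold change was 1.25 (SE 0.16, edgeR adjusted p = 7.1e-05). RPL39 itself had 46.5 ± 2.54 and 46.0 ± 9.38 CPM (SD, n = 4 each) and did not pass (log2 fold change −0.03, SE 0.12). The other tested copy gene, RPS27L, a p53-inducible relative of RPS27, ran from 27.9 to 31.1 CPM and from 27.8 to 30.8 CPM (log2 fold change −0.06, SE 0.08) and did not pass either.

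RPL9, near the base of the large subunit stalk, measured 153, 186, 154 and 151 CPM in experiment 1 and 245, 194, 205 and 221 CPM in experiment 2. Knockout replicate 2 was the highest of experiment 1, yet below all of experiment 2 (log2 fold change 0.43, SE 0.09, edgeR adjusted p = 0.00207). RPS15A was the tightest of the called genes, with 462 to 481 CPM in experiment 1 and 590 to 601 CPM in experiment 2 (log2 fold change 0.33, SE 0.06, adjusted p = 6.3e-04). RPS18, in the head of the small subunit, rose from 968 ± 82.4 to 1153 ± 66.6 CPM (SD, n = 4 each; adjusted p = 0.00636). It was the 1 called gene whose experiments overlapped. Knockout replicate 2 of experiment 1 (1068 CPM) lay just above control replicate 4 of experiment 2 (1065 CPM). Of the coding words, 9.4% are unique in RPL9, 23.3% in RPS15A, 46.1% in RPS18 and 34.0% in RPS25. Their counts thus depend in part on how reads that fit several genes were shared out. RPS25, needed for initiation at some viral internal entry sites, rose from 456 ± 17.4 to 522 ± 16.1 CPM (SD, n = 4 each; adjusted p = 0.0157). Its call was lost without knockout replicate 1 (adjusted p = 0.0586), control replicate 1 (0.0817) or control replicate 2 (0.0724).

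**Figure D3:**
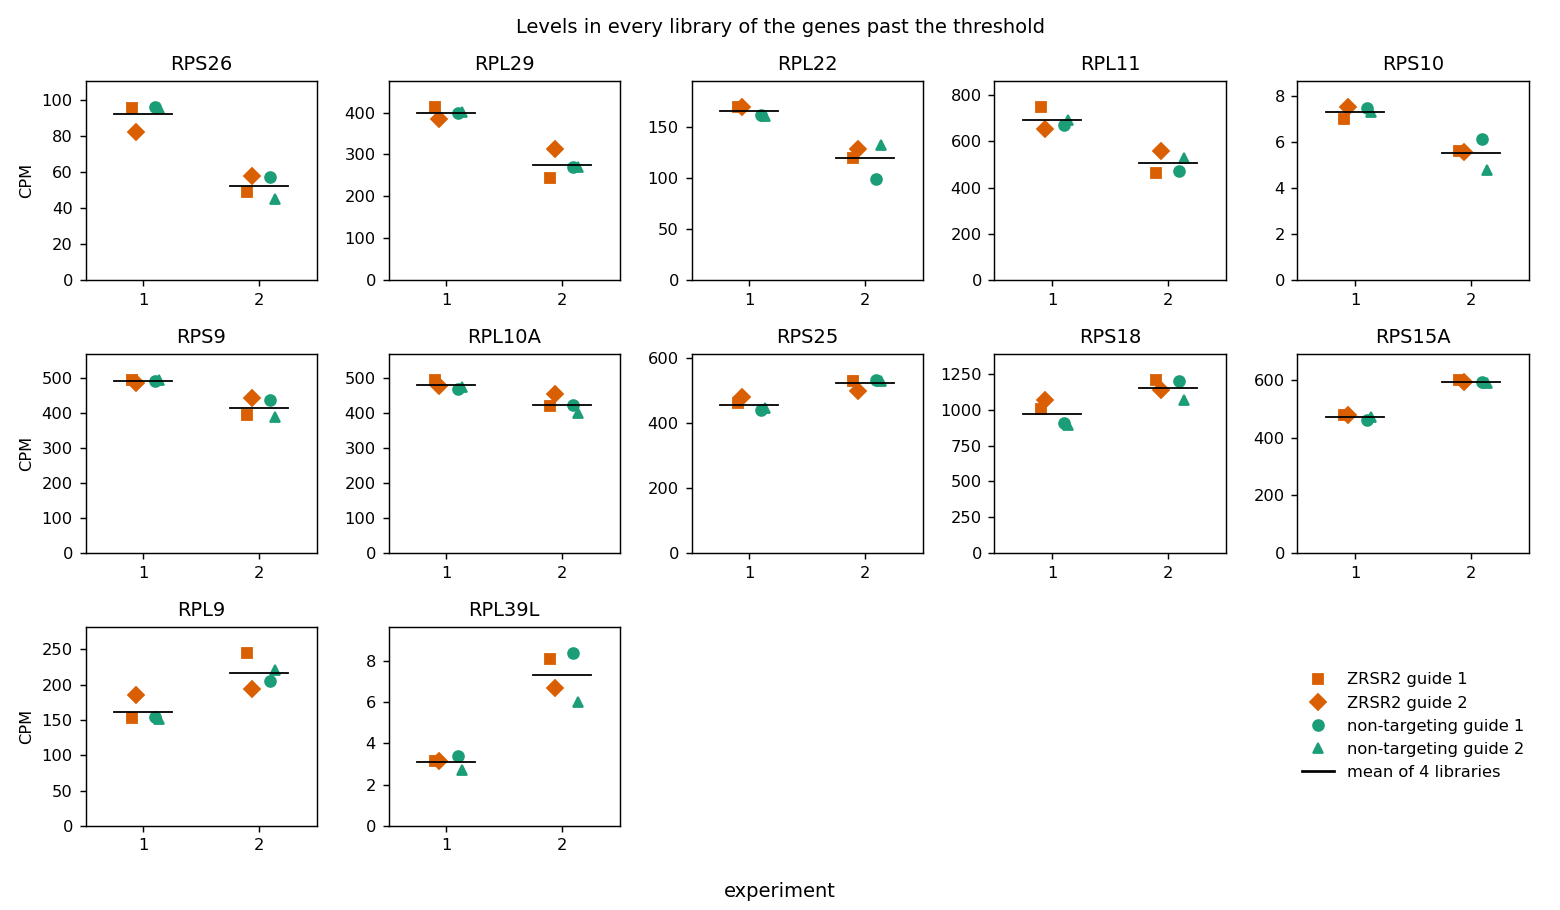
CPM in each of the 8 libraries for 12 of the 13 genes past the threshold, by experiment, with the mean of the 4 libraries as a bar; each axis starts at 0. The libraries of the 2 experiments do not overlap in any panel but that of RPS18.

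The differences were also counted within each genotype. Within the knockout libraries 8 ribosomal protein genes passed, while 37.2% of all genes did, and within the control libraries 11 passed, while 47% of all genes did. The 8 were all among the 11, with the same direction, and the 13 genes had the same sign in both genotypes. The 13 had been called on the mean of the changes in the 2 genotypes. A shared sign was thus largely set by that choice and is not separate evidence. RPS26, for instance, changed by −0.73 on the log2 scale in the knockout libraries and by −0.90 in the controls, and RPL39L by 1.24 and 1.27. These counts rest on 2 libraries a side and vary with single libraries. In the knockout libraries, 3 ribosomal protein genes (of 2870 genes in all) passed without replicate 1 and 5 (of 3246) without replicate 3, while 12 passed without control replicate 3 (of 7069) or control replicate 4 (of 7106). In the control libraries, 5 (of 4244) passed without replicate 1, 4 (of 3971) without replicate 2 and 19 (of 7169) without replicate 3. With all libraries, 5543 genes passed in the knockouts and 6995 in the controls. A library left alone on its side is assumed to vary like the others.

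Non-overlap of the experiments was counted apart from the test. It held for 23 of the 76 genes (30.3%), while 56% of all genes tested did not overlap. Of the 23, 12 were called and 11 were not, among them RPL26, RPL35, RPL15 and RPS20. An absolute log2 fold change of at least 0.5 was found in 4 genes (5.26%), against 38.2% of all genes tested. Among genes with a mean of at least 100 CPM, the shares were 2.94% of the ribosomal protein genes and 22.5% of all such genes.

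The calls were also counted by sequence uniqueness. Of the 40 tested genes with at least 50% of their coding words unique, 5 were called (12.5%), and of the other 36, 8 were called (22.2%). RPL11, RPS9, RPL10A and RPL39L are among those 5. This split was added after the data were seen, and the difference between its sides was not tested. A TOP-like start was found in 5 of the 7 genes called lower, in 2 of the 3 called higher that had an entry, and in 37 of the 51 not called (72.5%).

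By function, the P stalk stayed level: RPLP0, RPLP1 and RPLP2 had log2 fold changes of −0.01 (SE 0.06), −0.09 (SE 0.07) and −0.01 (SE 0.06), and none passed. The sign of RPLP2 turned, at 0.00, when library totals alone were used, and in 3 of the fits that leave out 1 library. Of 19 Diamond-Blackfan anaemia genes, 18 were tested: RPS15A rose, RPS26, RPL11 and RPS10 fell, and 14 did not pass. The share called was thus 22.2%, beside 17.1% of the 76 ribosomal protein genes and 58.2% of all genes. RPS19, the gene most often mutated in that disease, had 731 ± 29.3 and 743 ± 92.3 CPM (SD, n = 4 each). RPS14, whose loss underlies the anaemia of the 5q deletion syndrome, had 279 ± 9.03 and 285 ± 22.5 CPM (SD, n = 4 each). Neither passed.

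Genes of ribosome production and of the mitochondrial ribosome were counted in the same comparison, in which 29.6% of all genes were higher and 28.7% lower. Of 35 ribosome biogenesis genes, which build and export the subunits, 31 fell in experiment 2 (88.6%) and none rose, with a median log2 fold change of −0.68. RRP9, a protein of the U3 particle that processes ribosomal RNA, fell from 50.5 ± 6.07 to 13.9 ± 1.82 CPM (SD, n = 4 each; edgeR adjusted p = 7.3e-07). LTV1, an assembly factor of the small subunit, fell from 59.8 ± 2.69 to 22.3 ± 1.88 CPM (adjusted p = 6.8e-07). Of 76 tested mitochondrial ribosomal protein genes, 50 fell and 3 rose (69.7% called), with a median of −0.29, and they took 0.449% of counts in experiment 1 and 0.392% in experiment 2. MRPL20 fell by 1.19 and MRPL15 by 0.89 on the log2 scale, and MRPL37 rose by 0.61 (edgeR adjusted p = 4.6e-04). The cytosolic list, with a median of −0.01 and 6 higher and 7 lower, was not tested against these lists.

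Of 16 further genes of the translation machinery or with TOP messages, 5 rose and 1 fell (37.5% called, below the 58.2% of all genes). GAS5, a TOP host gene of small nucleolar RNAs, rose by 0.52 on the log2 scale, and EEF1A1, which brings transfer RNA to the ribosome, by 0.29. EEF1B2, its exchange factor, fell by 0.35. Among 8 ribosomal protein genes outside the symbol rule, RPL22L1 rose, RPL7L1 and RPL36AL fell, and 5 did not pass (37.5% called). Of 13 regulators of ribosome production, 3 rose and 6 fell (69.2% called, near the share of all genes). MYC, which drives ribosome production, had 677 ± 30.9 and 673 ± 38.0 CPM (SD, n = 4 each) and did not pass (edgeR adjusted p = 0.938). Histone rows, messages without a poly(A) tail, took 0.0134% of counts in experiment 1 and 0.00831% in experiment 2. In experiment 2 the share was 0.00581% and 0.0109% in knockout replicates 3 and 4, and 0.00619% and 0.0103% in control replicates 3 and 4. This share and the lymphocyte, monocyte and granulocyte sums above did not overlap between the experiments. The megakaryocyte and erythroid sums overlapped, with higher tops in experiment 2. The part of all these in the differences was not tested. In bulk RNA, fewer cells of a type and less RNA per cell cannot be told apart.

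**Figure D4:**
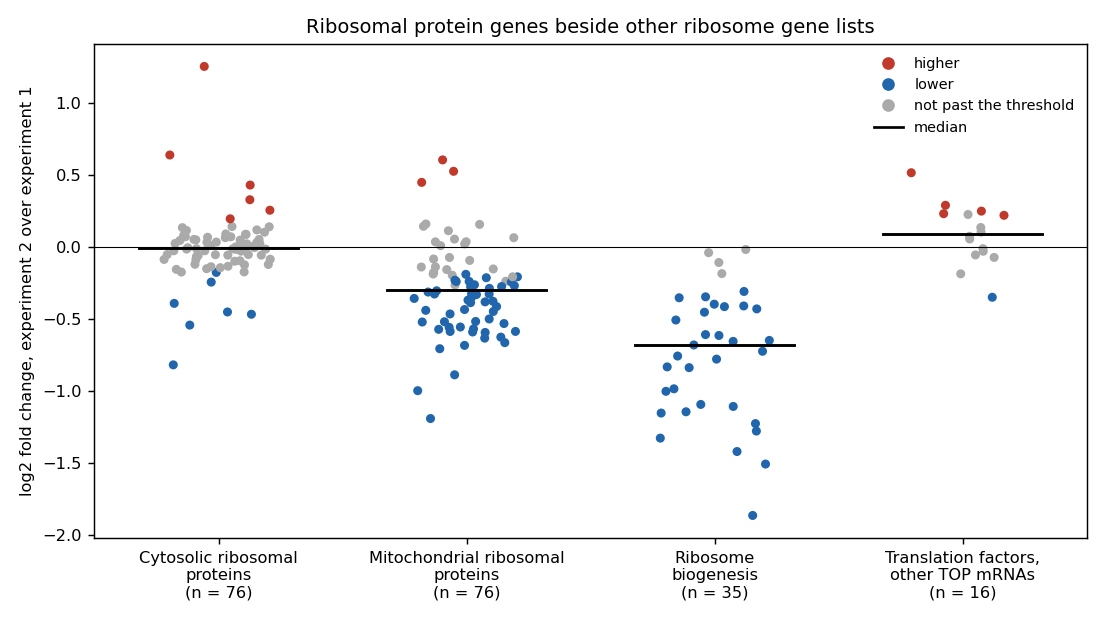
Log2 fold change of experiment 2 over experiment 1 for every tested gene of 4 lists, with the median of each list as a bar and genes past the adjusted p of 0.05 in colour. The cytosolic ribosomal protein genes lie around 0 (median −0.01), the ribosome biogenesis genes nearly all below it (median −0.68).

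Knockout of ZRSR2 was compared with non-targeting guides over all 8 libraries, in a fit with genotype alone. The spread in that fit includes the differences between the experiments. By edgeR's quasi-likelihood test no ribosomal protein gene passed (0 of 76), and 0% of all genes tested did. At an unadjusted p under 0.05 there were 0 ribosomal protein genes and 100 genes in all. With the experiment as a block, edgeR called 0 genes (727 at an unadjusted p under 0.05, 0 of them ribosomal protein genes). DESeq2 called 4 genes, and 31 with the block (0.208% of those tested), none of them a ribosomal protein gene. The log2 fold changes were small, from −0.15 to 0.19, with a median of 0.02, and 56 of 76 were above 0. Over all genes the median was 0.00 and 48.5% were above 0. The median of the ribosomal protein genes ran from 0.0167 to 0.0404 when 1 library was left out, the highest without control replicate 3 and next without knockout replicate 3 (0.0396), and was 0.0445 with library totals alone. The genes are not independent, and no test was made of this tilt.

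Named by the smallest unadjusted p, RPS23, which takes part in decoding, came first among the higher genes. It measured 314, 337, 334 and 307 CPM in knockout replicates 1 to 4 and 282, 290, 296 and 313 CPM in control replicates 1 to 4. The groups overlapped, and the log2 fold change was 0.13 (SE 0.07, edgeR adjusted p = 1, unadjusted p = 0.112). RPL39 and RPS13 followed, with 49.3 ± 6.24 against 43.2 ± 5.52 CPM and 236 ± 16.8 against 218 ± 7.39 CPM (SD, n = 4 each). Among the lower genes, RPL28, a large subunit protein, measured 906, 822, 827 and 974 CPM in the knockouts and 937, 937, 1064 and 965 CPM in the controls, which overlapped (log2 fold change −0.15, SE 0.09, edgeR adjusted p = 1). RPLP1 had 902 ± 68.9 against 935 ± 47.3 CPM (SD, n = 4 each).

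RPL4 was the 1 ribosomal protein gene of 76 whose genotypes did not overlap, while 0.678% of all genes tested did not. It measured 1577, 1598, 1597 and 1585 CPM in the knockouts and 1613, 1618, 1669 and 1655 CPM in the controls. The difference was small, −0.04 on the log2 scale (SE 0.07, edgeR adjusted p = 1).

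Each experiment was then taken alone, with 2 libraries a side. In experiment 1 no ribosomal protein gene passed, nor did any other gene (0%, edgeR). At an unadjusted p under 0.05 there were 270 genes and 0 ribosomal protein genes, and DESeq2 called 5 genes, 0 of them ribosomal. The median was 0.04 and 57 of 76 changes were above 0. In experiment 2 again none passed (0%, edgeR), with 685 genes and 0 ribosomal protein genes at an unadjusted p under 0.05, and DESeq2 called 13 genes, 0 of them ribosomal. The median was 0.01 and 40 of 76 were above 0. Without control replicate 3, edgeR called 188 genes in experiment 2, and still 0 ribosomal protein genes. Without knockout replicate 1 it called 2 genes in experiment 1, and 0 ribosomal protein genes.

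The difference of the effects between the experiments passed for no gene (0%, edgeR and DESeq2), with 222 genes and 0 ribosomal protein genes at an unadjusted p under 0.05. RPL17, a large subunit protein whose row has no unique coding words, had the smallest unadjusted p (0.0662). Its knockout effect was 0.33 in experiment 1 and −0.13 in experiment 2 on the log2 scale, on 7.34 to 10.6 CPM. RPL39 had effects of 0.09 and 0.31, and RPS26 of −0.11 and 0.06. The difference for RPL39 turned its sign without knockout replicate 3.

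The guides gave no call among these genes. The 2 libraries of a guide come from different experiments, so without a block the spread in these fits includes the differences between the experiments. Against the 4 control libraries, which both comparisons share, ZRSR2 guide 1 gave 0 of 76 (0% of all genes, edgeR; 23 genes at an unadjusted p under 0.05) and guide 2 gave 0 of 76 (0%; 75 genes), with 0 ribosomal protein genes at that level in either. DESeq2 called 0 genes for guide 1 and 2 for guide 2. With the experiment as a block, guide 1 gave 0 genes, and 465 had an unadjusted p below 0.05. RPL39 was the 1 ribosomal protein gene among these (unadjusted p = 0.0412, edgeR adjusted p = 1). In the blocked fit, guide 2 gave 10 genes, 0 of them ribosomal. For guide 1 the median was 0.01 with 43 of 76 above 0, and for guide 2 it was 0.04 with 64 of 76 above 0. RPL39 (0.28, SE 0.16) and RPL28 (−0.17, SE 0.13) had the smallest p for guide 1, and RPLP0 (0.13, SE 0.11) and RPL28 (−0.12, SE 0.13) for guide 2. RPL28 rests on knockout replicate 2 there, since without it the change was 0.00.

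Guides of the same genotype were compared with each other too, with 2 libraries a side. The 2 non-targeting guides differed by a median of 0.03, with 48 of 76 changes above 0, and the 2 ZRSR2 guides by −0.02, with 26 of 76 above 0. Neither comparison called a gene (0% each, edgeR and DESeq2), with 14 and 36 genes and 0 ribosomal protein genes at an unadjusted p under 0.05. The spread here again includes the differences between the experiments, so these low counts do not show that the guides agree. With the experiment as a block, edgeR gave 623 and 423 genes at that level, and again called 0. In the blocked fit, RPL39L was the 1 ribosomal protein gene below that level between the control guides (unadjusted p = 0.0455, edgeR adjusted p = 0.891). The median between the control guides turned its sign without control replicate 3 (−0.00273) or control replicate 4 (−0.000656). Changes between the control guides ran from −0.25 for RPL39 to 0.47 for RPL39L, which averaged just 5.20 CPM.

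**Figure D5:**
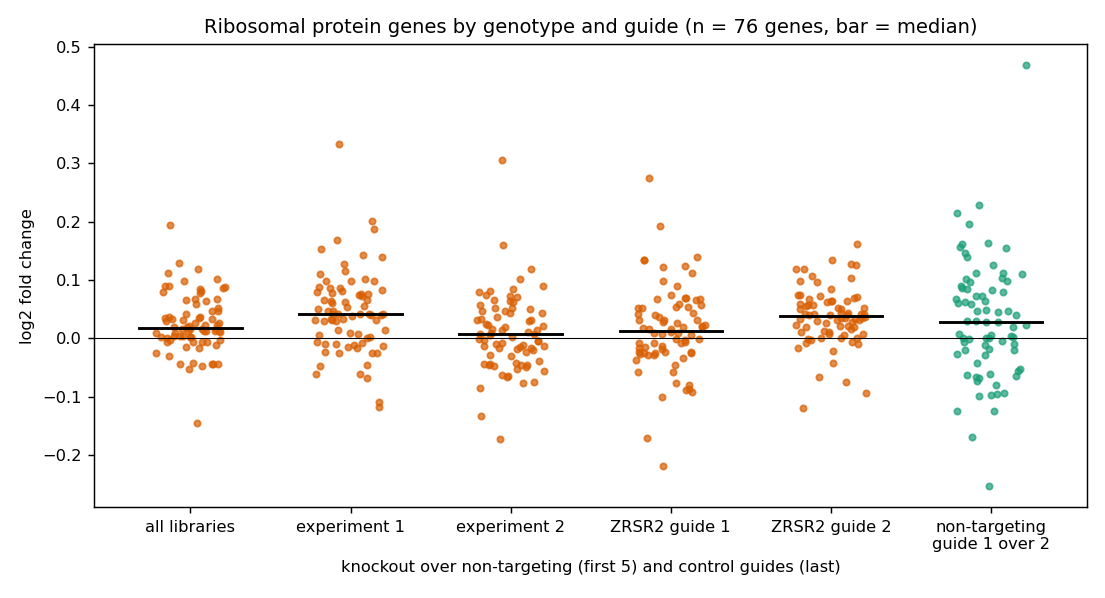
Log2 fold changes of the 76 tested genes for knockout over non-targeting in all libraries, in each experiment and for each ZRSR2 guide, and for control guide 1 over control guide 2; bars are medians. The medians lie between 0.01 and 0.04, that of the 2 control guides among them at 0.03.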

How the data were processed

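Messenger RNA of 8 SET-2 libraries was counted by the authors, and the deposited table holds RSEM expected counts per gene symbol, already whole numbers. RSEM 1.2.30, cutadapt 1.11 and the build hg19 are named in the submitters' processing notes; how reads were aligned, with which annotation and whether by strand is not given in the sources used here. RSEM divides reads that fit several genes by probability, which bears on genes with many copies. Totals were 31106042 to 71521173, so 1 count was worth 0.0140 to 0.0322 CPM of the unscaled total. The CPM values of genes were computed on TMM-scaled totals. Of the columns, 0 belonged to other samples.

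Genes were kept by filterByExpr on genotype, scaled by TMM and tested with edgeR 4.0.16 (quasi-likelihood F test, R 4.3.3), with Benjamini-Hochberg adjustment over 14898 genes and a threshold of 0.05. The script was tested on simulated data, which had no difference between experiments in the knockout comparison. That test therefore does not show which knockout changes could be found in these data. The fits had genotype alone, 4 cells of genotype by experiment, or the 4 guides. Standard errors come from the F statistic. DESeq2 1.42.0, other scalings, other filters and leaving out each library were alternatives. Deviations from the genotype means correlated at 0.678 to 0.846 in the 8 pairs of knockout and control libraries of an experiment. Between experiments they correlated at −0.816 to −0.709, values in part set by taking each genotype about its own mean. The experiment was therefore taken as pairing the samples in the fits with a block. The main knockout and guide fits had no block and did not use this pairing. That the experiment number is the biological replicate number, which the protocol ties to a day, was assumed. No 2 libraries agreed within sampling noise (smallest chi-square per degree of freedom 3.05).

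The ribosomal protein genes and the gene lists were chosen with earlier results of these data known. Named were the 3 genes per direction of smallest unadjusted p for the knockout, the 5 per direction of largest change for the experiments, the 2 per direction for the difference, 1 per direction for each guide, the 5 highest and the 5 lowest by CPM, the stalk, 5S particle and copy genes, RPS14 and RPS19, and up to 2 per direction of each other list. RPS9, RPL10A, RPS25, RPL34, RPL37A, RPL35, RPL15, RPS20 and the genes named for their sequence uniqueness were named after their values were seen. Promoter windows are from RefSeq (GRCh38.p14), and coding parts from GENCODE 29. Python 3.11.15 and matplotlib 3.10.9 were used. Some genes that these rules name are not reported here. One more ZRSR2 guide of the series design was not analysed here.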

Additional observations from a re-analysis of the deposited data

Results flagged for a closer look

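Groups of 4 libraries were looked at, the 4 of a genotype or of an experiment. In 10 of 112 such groups, over 28 measures, 1 library stood far from the other 3. For independent draws from 1 normal population, the rule used flags about 1 in 20 groups. That rate need not hold here, since genotype groups mix the experiments and each library is in a genotype group and an experiment group. Knockout replicate 2 stood apart within experiment 1 in 3 genes: RPL9 at 185.6 CPM against 151 to 153.6, RPS26 at 81.84 against 95.14 to 95.89, and RPS27L at 27.94 against 30.64 to 31.13. For RPL9 and RPS26 it lay on the side of experiment 2. Control replicate 3 stood apart among the controls in its total of 71521173 counts, in the share of ribosomal protein messages (4.442% against 4.22% to 4.252%), in RPLP0 (1386 CPM against 1327 to 1337) and in RPS14 (309.2 against 269.5 to 274.5). RPL5 was low in knockout replicate 1 among the knockouts (719.7 CPM against 773.1 to 776.6) and high in control replicate 4 among the controls (823.1 against 727.7 to 733.2). RPS4X was highest in knockout replicate 3 among the knockouts, by a small margin (1477 CPM against 1464 to 1465).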

How the results depend on the processing

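Over 68 results and 992 values under alternatives, 948 kept their direction and their side of the threshold, or moved by less than the limit set for them. DESeq2 called 4 genes for the knockout, 31 with the replicate block, 5 in experiment 1, 13 in experiment 2 and 2 for guide 2, where edgeR called 0; edgeR with the replicate block called 10 for guide 2. None was a ribosomal protein gene, and the block changed no other call. With library totals alone, the median of the ribosomal protein genes was 0.0535 for the knockout in experiment 2, 0.00818 for the difference, 0.000837 for experiment 2 against 1 in the knockouts and 0.0747 for guide 2, and RPLP2 between the experiments turned to 0.00157. As a geometric mean, the level in experiment 2 was 99.25% of experiment 1, where the sum gave 101.9%. Genes with unique words gave 5 calls between the experiments, by construction from fewer genes. Leaving out 1 library at a time gave ranges as follows. Calls among the ribosomal protein genes ran from 10 to 25 between the experiments, from 3 to 12 within the knockouts and from 4 to 19 within the controls, and 2870 to 7106 and 3971 to 7169 genes in all passed within the knockouts and the controls. Gene calls for the knockout ran from 0 to 2 in experiment 1 and from 0 to 188 in experiment 2. The median of the ribosomal protein genes ran from −0.0187 to 0.0435 for the knockout in experiment 2, from −0.0729 to −0.00756 for the difference, from −0.0267 to 0.0433 for guide 1 and from −0.0596 to 0.00142 between the ZRSR2 guides. Single genes whose sign turned were RPLP1 (−0.0803 to 0.00158, knockout), RPL39 (−0.00939 to 0.453, difference), RPL28 (−0.248 to 0.000928, guide 2), and between the experiments RPLP0 (−0.0404 to 0.0164), RPLP2 (−0.0512 to 0.0261), RPS14 (−0.0171 to 0.0809) and RPS19 (−0.0885 to 0.119), none of them called. The cause was not tested. A depth of at least 31106042 counts left 4 ribosomal protein genes at no more than 4 counts, where no change was detectable.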
